A study of Mus musculus with 24 samples.

Results

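Natural killer T cells can kill by releasing granules and by engaging death receptors, and 9 genes of these pathways were followed here in liver-resident invariant natural killer T (LiNKT) cells. Gzma, Gzmb, Gzmk and Gzmm encode granzymes, the serine proteases of cytotoxic granules. Prf1 encodes perforin, which lets granzymes into the target cell, and Nkg7 encodes a granule membrane protein. Serpinb9 encodes an inhibitor of granzyme B that protects the killer cell itself, and Fasl and Tnfsf10 (TRAIL) encode ligands of death receptors. The genes were chosen by their known roles and with their levels in the treated and untreated cells already known, and 9 of the 55401 genes in the count tables are members. All 9 passed a minimum of 10 counts summed over both groups, as did 15052 genes in all. The treated-to-untreated levels of the members are therefore a description.

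The cells came from the livers of NOD mice, which are prone to autoimmune diabetes, and were sorted as live cells that bind αGalCer/CD1d tetramers and carry an intermediate level of TCRβ. Treated mice had received αGalCer/CD1d-NPs, nanoparticles that carry the glycolipid αGalCer on mouse CD1d, at 20 µg per dose and 2 doses a week for 5 weeks. Control mice are given as untreated in the methods of each kind of data used here. The general methods of the study also allow for controls given other particles (Cys-NPs). SmartSeq2 libraries came from 3 male mice per group at 13 to 15 weeks of age. The chromatin fragments of the multiome came from 5 untreated and 4 treated male mice of that age. For the multiome, a figure legend of the study instead gives a younger age and controls treated with vehicle. Bisulfite sequencing used 7 untreated female mice of 17 weeks and 4 treated mice of 16 weeks, whose sex is not stated. The values used here do not tell the mice of a group apart, so that each group is 1 sample, no difference has a replicate check, and all intervals (95%, exact) cover counting error only. In the bisulfite samples, age and treatment cannot be told apart.

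SmartSeq2 reads full-length RNA of cells sorted into wells, and its counts are PCR-amplified reads, not molecules. The intervals of summed counts take reads as independent, which copies of a molecule are not, so that these intervals are too narrow. The 273 untreated and 251 treated cells to which the study assigned a sub-cluster were used, with a median of 635257 and 599896 counts per cell on 861 and 850 genes. Of the 7 T and iNKT cell markers, all had reads in both groups, and at least 1 of them was read in 273 untreated and 239 treated cells. Zbtb16, which encodes the iNKT cell factor PLZF, was read in 4.40% and 6.37% of cells. Macrophage markers summed to 1901 CPM (counts scaled to a total of 1000000) in treated and 0.0174 CPM in untreated cells, and Lyz2 was read in 11 treated cells, none of which held Gzma. The 6 NK cell markers summed to 738 CPM without treatment and 2053 CPM with it, with Eomes, a defining factor of NK cells, at 0 in untreated cells and in 1 treated cell.

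DNA methylation and chromatin accessibility were read around the same genes, and the sequences concerned are shown first. The 250 bases before the RefSeq start site are shown for Gzmk, Gzma and Gzmb, the granzymes with the highest levels in treated cells, on the minus strand of GRCm38 on which all 3 are transcribed, from 5′ to 3′ with CpGs in capitals. They are from RefSeq. The fourth sequence is the region nearest to Gzma that lost methylation in treated mice, read on the same strand.
Gzmk, chr13:113180966-113181215: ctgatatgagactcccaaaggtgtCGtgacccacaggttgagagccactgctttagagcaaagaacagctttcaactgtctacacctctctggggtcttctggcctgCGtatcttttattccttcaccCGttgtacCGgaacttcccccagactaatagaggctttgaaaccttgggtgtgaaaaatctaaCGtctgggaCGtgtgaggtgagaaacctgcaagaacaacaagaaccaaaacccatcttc
Gzma, chr13:113100982-113101231: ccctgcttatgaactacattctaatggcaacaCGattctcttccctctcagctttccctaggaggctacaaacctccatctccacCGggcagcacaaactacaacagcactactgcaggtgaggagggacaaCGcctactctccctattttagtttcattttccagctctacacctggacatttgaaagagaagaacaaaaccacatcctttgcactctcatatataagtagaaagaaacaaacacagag
Gzmb, chr14:56262335-56262584: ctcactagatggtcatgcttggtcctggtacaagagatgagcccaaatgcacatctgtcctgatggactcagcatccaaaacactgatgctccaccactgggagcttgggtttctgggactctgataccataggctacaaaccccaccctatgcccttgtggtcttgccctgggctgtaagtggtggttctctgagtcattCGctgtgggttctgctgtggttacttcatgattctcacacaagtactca
Region near Gzma, chr13:113104793-113104996: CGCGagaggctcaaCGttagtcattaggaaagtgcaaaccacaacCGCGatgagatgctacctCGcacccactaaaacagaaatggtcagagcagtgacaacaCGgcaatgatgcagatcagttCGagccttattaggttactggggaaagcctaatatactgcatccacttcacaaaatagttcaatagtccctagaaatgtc

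The Gzmk stretch held 6 CpGs, the Gzma stretch 3 and the Gzmb stretch 1. Bases 129 to 250 of the Gzmk stretch, with 4 of its CpGs, lay in a differentially methylated region (DMR), and no DMR reached the other 2. In windows from 250 bases before to 50 after the start, a median of 7 CpGs was found over all RefSeq promoters, as compared to 8 for Gzmk, 5 for Gzma and 2 for Gzmb. The letters TGTGGT, a core of RUNX sites, were found on either strand in the windows of 6 of the 9 members (Gzma, Gzmb, Gzmm, Prf1, Nkg7 and Serpinb9) and in 16.8% of all 32851 windows. The letters GGTGTGA, a core of T-box sites, were found in those of Gzmk, Gzmm and Nkg7, and in 3.98% of all windows. A member was counted if any of its windows matched, whereas the percentages are of single windows, so that they are not like for like. The last letters of TGTGGT are the first of GGTGTGA, so that matches can share bases, and a match is a description of the letters.

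Over all cells used, Gzma, Gzmk and Gzmb had the largest log2 ratios of treated to untreated cells among the members, and Gzmm did not follow them. Gzma (ENSMUSG00000023132), a tryptase, stood at 143 CPM (141 to 144) without treatment and at 3904 CPM (3894 to 3914) with it, and the log2 ratio was 4.77 with a prior of 1 CPM. It was read in 11 of 273 untreated cells (4.03%, 2.03 to 7.10) and 99 of 251 treated cells (39.4%, 33.4 to 45.8). A single untreated cell held 46.0% of the Gzma reads of its group, and without it the untreated level was 77.4 CPM. Both the number of cells with Gzma and the level in them were higher with treatment: the lowest, median and highest cell with reads were at 4.81, 2381 and 14693 CPM in untreated and at 88.4, 7314 and 38902 CPM in treated cells.

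Gzmb, which cleaves caspases in the target cell, was already present without treatment. It was read in 68 untreated cells (24.9%, 19.9 to 30.5) at 1151 CPM (1146 to 1156) and in 125 treated cells (49.8%, 43.5 to 56.2) at 3344 CPM (3335 to 3353). The log2 ratio was 1.54. Among cells with reads, the lowest, median and highest values were 2.82, 3116 and 17604 CPM in untreated and 27.5, 4617 and 43874 CPM in treated cells. The ranges of single cells overlapped widely for Gzmb, and the share of cells with reads did not.

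Gzmk was rare in both groups. It was read in 5 untreated cells (1.83%, 0.597 to 4.22) and 15 treated cells (5.98%, 3.38 to 9.67), at 27.2 and 119 CPM (log2 ratio of 2.09). Without the untreated cell with the most reads, the untreated level was 16.8 CPM. The intervals of its shares overlapped. Gzmm was close to absent: 22 reads lay in 1 untreated cell and none in treated cells, which allows a share of up to 1.20% of the treated cells.

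**Figure D1:**
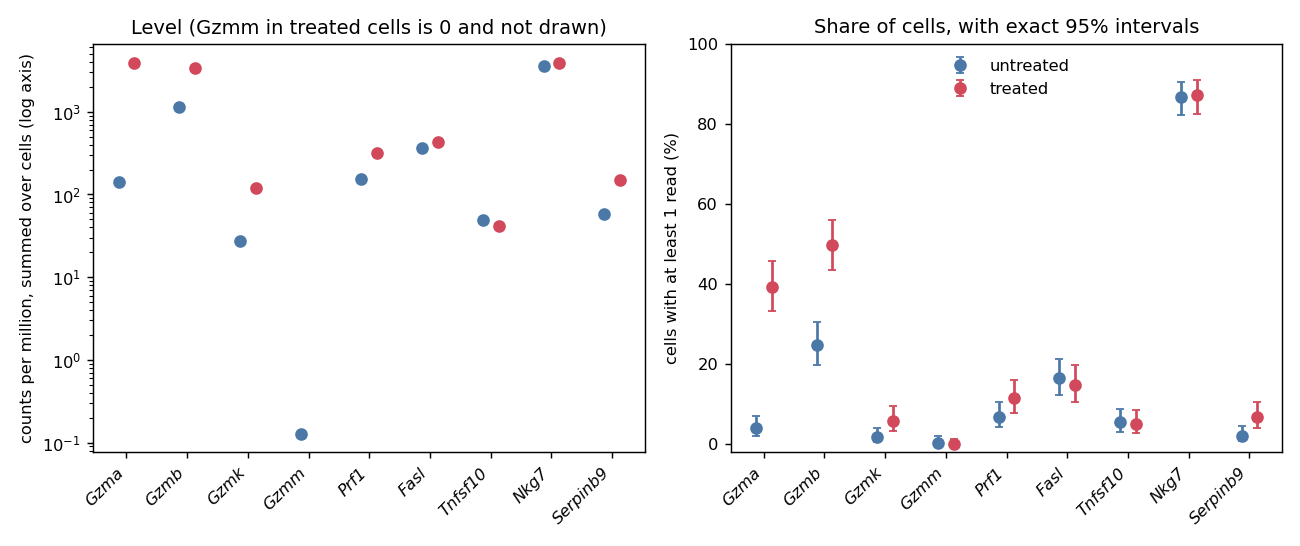
Members in untreated (blue) and treated (red) SmartSeq2 cells. Left, CPM of the counts summed over 273 and 251 cells, on a log axis; right, the share of cells with at least 1 read, with exact 95% binomial intervals. The shares of Gzma and Gzmb are apart between the groups (4.03% and 39.4%, 24.9% and 49.8%), and those of Nkg7 overlap (86.8% and 87.3%).

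The other granule genes differed less. Prf1 stood at 153 CPM (151 to 155) without treatment and at 321 CPM (318 to 324) with it, and was read in 19 (6.96%, 4.24 to 10.7) and 29 cells (11.6%, 7.88 to 16.2), respectively. Nkg7 was read in 237 untreated cells (86.8%, 82.2 to 90.6) and 219 treated cells (87.3%, 82.5 to 91.1), at 3588 and 3933 CPM. Prf1 was thus read in few cells of both groups, whereas Nkg7 was read in most. A cell without reads on a gene is not shown to lack its RNA. Serpinb9 was at 58.8 CPM in untreated cells, in 6 cells (2.20%, 0.811 to 4.72), and at 149 CPM in treated cells, in 17 cells (6.77%, 3.99 to 10.6). The intervals of the shares of Prf1, Nkg7 and Serpinb9 overlapped between the groups.

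The death receptor ligands were at like levels in both groups. Fasl was read in 45 untreated (16.5%, 12.3 to 21.4) and 37 treated cells (14.7%, 10.6 to 19.7), at 360 and 431 CPM. Tnfsf10 was read in 15 (5.49%, 3.11 to 8.90) and 13 cells (5.18%, 2.79 to 8.69), at 49.4 and 42.0 CPM. For each of both genes the difference in shares was within the intervals.

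At a fold of at least 2, 5 of the 9 members (Gzma, Gzmb, Gzmk, Prf1 and Serpinb9) were higher in treated cells and none was lower, with a median log2 ratio of 1.07 over the members. Of all 15052 genes tested, 20.1% were at least 2-fold higher and 17.2% at least 2-fold lower, with a median of 0.02. The rule used this contrast, and nothing is read from the count. Cell names carry a code followed by 1 or 2, taken here as the flow cell lane, which the labels do not state. Both groups had cells of each lane, and within each lane Gzma and Gzmb stayed at least 2-fold higher in treated cells. The log2 ratio of Gzma was 6.50 in lane 1 and 3.54 in lane 2, and that of Gzmb 1.56 and 1.53. Gzma in untreated cells was at 42.3 CPM in lane 1 and 332 CPM in lane 2, where a single cell held 57.0% of its reads. Gzmk (3.68 and 0.70), Prf1 (0.65 and 2.18) and Serpinb9 (0.98 and 2.24) were higher in both lanes but reached 2-fold in just 1 of them. Fasl (0.54 and −0.68), Tnfsf10 (−1.09 and 0.70) and Nkg7 (0.26 and −0.22) changed direction between lanes.

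Levels of different genes were compared per kb of exon. In untreated cells the order of CPM per kb was Nkg7 (3925), Gzmb (801), Fasl (186), Gzma (142), Prf1 (59.1), Gzmk (19.6), Serpinb9 (16.8), Tnfsf10 (9.38) and Gzmm (0.0866). In treated cells Gzma (3880) and Gzmb (2329) followed Nkg7 (4303), and Fasl (222), Prf1 (124), Gzmk (85.7), Serpinb9 (42.7) and Tnfsf10 (7.98) came next. With 1 sample per group, no spread between samples can be set beside this order. Reads shared between near-identical genes may be split among them: of the other granzyme genes Gzmc stood at 15.0 and 21.1 CPM without and with treatment (4 cells in each group, 6.88 CPM in untreated cells without the top cell), Gzmn was read in 1 treated cell, and Gzmd, Gzme, Gzmf and Gzmg were not read.

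Within the groups, granzymes were concentrated in one of the study's sub-clusters. These were built on the genes of the same cells, and their values are a description. In cluster 4, Gzma was read in 8 of 43 untreated (18.6%) and 93 of 133 treated cells (69.9%), and Gzmb in 30 (69.8%) and 105 (78.9%). In cluster 2, Gzma was read in 3 of 228 untreated (1.32%) and 6 of 61 treated cells (9.84%), and Gzmb in 38 (16.7%) and 11 (18.0%). No cell of cluster 5, which held treated cells alone, had Gzma (0 of 57, which allows a share of up to 5.26%), and 9 had Gzmb (15.8%). Within cluster 4 the share of cells with Gzmb was thus similar in both groups and the share with Gzma was not, while treated cells were more often in cluster 4. Nkg7 was read in 98.5% of treated cells in cluster 4, 89.5% in cluster 5 and 60.7% in cluster 2, where the 11 cells with Lyz2 also lay.

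**Figure D2:**
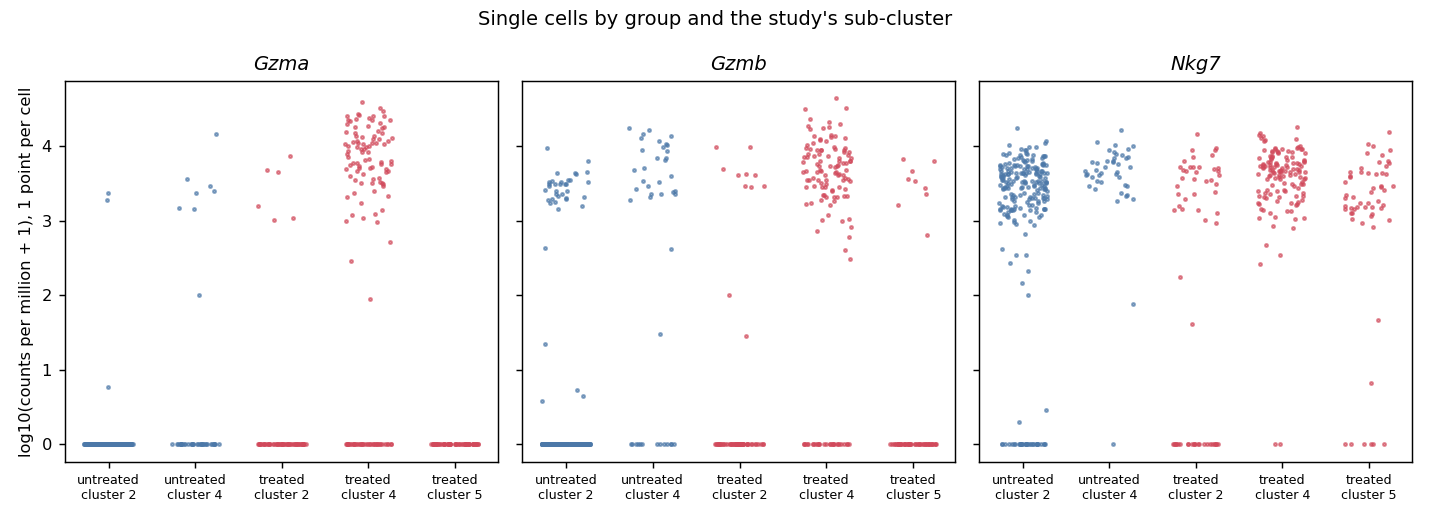
Gzma, Gzmb and Nkg7 in single cells, as log10(CPM + 1), by group (blue, untreated; red, treated) and the study's sub-cluster, 1 point per cell and 0 for cells without reads; 2 untreated cells of cluster 3 are not drawn. Of the 99 treated cells with Gzma, 93 lie in cluster 4, as do 8 of the 11 untreated cells with it, whereas Nkg7 is read in every sub-cluster shown.

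The members were read together in the same cells. Of the 99 treated cells with Gzma, 78 also held Gzmb (78.8%, 69.4 to 86.4). They made up 31.1% of treated cells, where the product of the single shares was 19.6%. That product is taken over all sub-clusters. Of the 99 cells, 93 lay in cluster 4, where 78.9% of treated cells held Gzmb. Co-detection was part of how the members were chosen, and nothing is read from the excess. Cells with Gzma had a median of 612558 counts on 833 genes, as compared to 598190 counts on 859 genes in the other treated cells. In untreated cells 8 of the 11 cells with Gzma held Gzmb.

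Granzymes and perforin overlapped in part. Of the 29 treated cells with Prf1, 19 held Gzma (65.5%) and 22 held Gzmb (75.9%), and 14 cells (5.58%) held Gzma, Gzmb and Prf1, as compared to 1 untreated cell. Of the 15 treated cells with Gzmk, 11 held Gzma and 13 held Gzmb, and of the 13 treated cells with Tnfsf10, 11 held Gzma and all 13 held Gzmb. Serpinb9 was the exception to this overlap for Gzma. Its 17 treated cells held Gzma in 6 cases (product of shares 2.67%, found 2.39%), and Gzmb, the protease it inhibits, in 12 cases. At least 3 members were read in 29 untreated cells (10.6%) and 104 treated cells (41.4%), and the highest number in a cell was 5 in untreated and 6 in treated cells.

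Over the 251 treated cells, the genes most like Gzma among the 2058 read in at least 10% of them were Ccl5 (Spearman's rho of 0.70), Cd7 (0.54) and Gzmb (0.49). Those most like Gzmb were Cd7 (0.57), Ccl5 (0.56) and Gzma (0.49). Cells of 1 sample share their library preparation and depth differs between them, so that these values are a description. For Gzmk no gene was above 0.27, and nothing is read from values this low.

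Il10, Il21 and Lag3, genes of T-regulatory type 1 (TR1) cells, had no reads in untreated cells (0 of 273 for each, which allows a share of up to 1.10%). In treated cells they were read in 32, 26 and 56 cells, and 74 cells held at least 1 of them (29.5%, 23.9 to 35.5). Most members were less frequent in those 74 cells than in the other 177 treated cells. Gzma was read in 6 of the 74 (8.11%, 3.03 to 16.8) and in 93 of the others (52.5%, 44.9 to 60.1), at 644 (414 without the cell with the most reads) and 5367 CPM. Gzmb was read in 14 (18.9%, 10.7 to 29.7) and 111 (62.7%, 55.1 to 69.9), at 927 and 4429 CPM.

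The other members with reads in treated cells also had lower shares in the 74 cells, most of them at low levels, and Gzmm had no reads in treated cells. Prf1 was read in 2 of the 74 cells (2.70%, 0.329 to 9.42) and 27 of the others (15.3%, 10.3 to 21.4), and these intervals were apart. Fasl was read in 5 (6.76%, 2.23 to 15.1) and 32 (18.1%, 12.7 to 24.6). Gzmk and Serpinb9 were each read in 1 of the 74 cells (1.35%, 0.0342 to 7.30), as compared to 14 (7.91%, 4.39 to 12.9) and 16 (9.04%, 5.26 to 14.3) of the others. Tnfsf10 was read in none of the 74, which allows a share of up to 4.05%, and in 13 of the others (7.34%, 3.97 to 12.2). The intervals of Fasl, Gzmk, Serpinb9 and Tnfsf10 overlapped between both sets of cells. Nkg7 differed least: it was read in 62 of the 74 (83.8%, 73.4 to 91.3) and 157 of the others (88.7%, 83.1 to 93.0), and these intervals overlapped too.

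**Figure D3:**
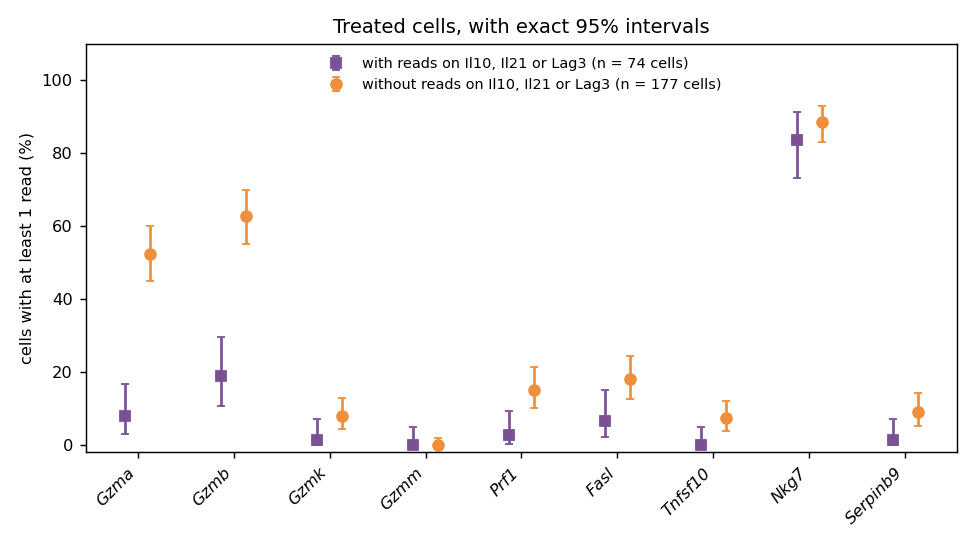
Share of treated cells with at least 1 read on each member, for 74 cells with reads on Il10, Il21 or Lag3 (squares) and 177 cells without (circles), with exact 95% binomial intervals. The intervals of Gzma (8.11% and 52.5%), Gzmb (18.9% and 62.7%) and Prf1 are apart, and those of the other 6 members overlap.

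Of the 8 members read in at least 5% of treated cells, 7 had a share at least 2-fold lower in the cells with Il10, Il21 or Lag3 (all but Nkg7) and none had a share at least 2-fold higher. Of the 4148 genes read that often, 8.39% were lower and 9.31% higher by this rule. The overlap with these cells was part of how the members were chosen for description, and nothing is read from the count. The cells with these genes were not shallower, with a median of 638516 counts as compared to 593485. Asking for at least 2 of Il10, Il21 and Lag3 gave 32 cells, of which 1 held Gzma (3.13%) and 4 held Gzmb (12.5%).

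Seen from the members, 6 of the 99 cells with Gzma (6.06%) held at least 1 of Il10, Il21 and Lag3, as did 14 of the 125 cells with Gzmb (11.2%) and 62 of the 219 with Nkg7 (28.3%). Of the 32 cells with Il10, 1 held Gzma and 2 held Gzmb. Of the 56 cells with Lag3, 5 held Gzma and 12 held Gzmb. The 74 cells lay mostly in cluster 5 (51 cells), with 15 in cluster 2 and 8 in cluster 4. Of the 8 cells in cluster 4, 5 held Gzma and 5 held Gzmb (62.5% each, 24.5 to 91.5), and the shares in the other 125 cells of that cluster, 70.4% and 80.0%, lay within this interval.

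Of the 6 NK cell markers, 4 were more frequent in treated cells with Gzma. Of the treated cells with Gzma, 40.4% held Ncr1, 72.7% Fcer1g and 63.6% Klre1, as compared to 4.61%, 25.7% and 21.7% of those without, and Klra8 was read in 28.3% and 10.5%. Klri2 was not higher in this way (6.06% and 7.24% of cells, 89.3 and 86.3 CPM). The 6 NK markers summed to 3789 and 951 CPM in these cells, and to 277 and 2851 CPM in treated cells with and without Il10, Il21 or Lag3. At least 1 NK marker was read in 12.2% of the cells with and 83.6% of the cells without Il10, Il21 or Lag3. The cells without Gzma include most of those with Il10, Il21 or Lag3, and no comparison within cluster 4 was made. Eomes was at 0 in the cells with Gzma. The CD3 and TCR genes were at closer shares: Cd3e was read in 79 of the 99 treated cells with Gzma and 121 of the 152 without, Trac in 75.8% and 73.0% of them, Cd3d in 52.5% and 63.2%, and each of the 99 cells with Gzma held at least 1 marker of the T and iNKT cell list. Zbtb16, the defining iNKT cell marker of that list, was read in 1 of the 99 cells with Gzma (1.01%, 0.0256 to 5.50) and 15 of the 152 without (9.87%, 5.63 to 15.8). The part of NK cell markers and of Zbtb16 in the granzyme values was not tested. With cells that hold a CD3 or TCR constant gene alone, Gzma was read in 41.4% of 239 treated and 4.03% of 273 untreated cells.

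Genes around the members were read from fixed lists, beside the 20.1% of all 15052 genes that were at least 2-fold higher and the 17.2% that were lower. Of 11 genes of granule formation and release, 4 were at least 2-fold higher in treated cells: Srgn, the granule proteoglycan (971 and 2311 CPM), Ctsc, which activates granzymes (158 and 366 CPM), Cst7 (132 and 381 CPM) and Stx11, a syntaxin of granule fusion (20.4 and 87.5 CPM). The Stx11 reads of untreated cells lay in 3 cells, and the level was 5.92 CPM without the top cell. The intervals of the shares of Srgn and Cst7 were apart between the groups. Those of Ctsc (8.42% and 11.2% of cells) and Stx11 (1.10% and 4.38%) overlapped. Lyst, needed for lysosome trafficking, was lower (267 and 61.4 CPM, or 40.9 CPM in treated cells without the top cell; read in 24.9% and 3.98% of cells), and 6 genes were within 2-fold. Of 10 death receptor and TNF family genes, Tnfrsf1b was higher (65.5 and 195 CPM, with 41.6 CPM in untreated cells without the top cell) and Tnfrsf10b (the TRAIL receptor), Tnfrsf1a, Tnf and Lta were lower. Tnfrsf10b was at 4.51 CPM in untreated cells, or 1.15 CPM without the top cell, and had no reads in treated cells. It was read in 7 untreated cells (2.56%, 1.04 to 5.21), and the intervals of its shares overlapped between the groups. Those of Tnfrsf1b (5.49% and 8.76% of cells), Tnfrsf1a (7.33% and 5.58%) and Tnf (6.96% and 3.59%) overlapped too. Tnf, a cytokine, was at 126 and 54.0 CPM, and Lta was at 11.5 CPM in untreated cells and had no reads in treated cells. Lta reads lay in 4 untreated cells (1.47%, 0.401 to 3.71), with 4.29 CPM without the top cell, and 0 of 251 treated cells allows a share of up to 1.20%, so that a difference in shares was not detectable at this depth.

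Factors known to drive cytotoxic genes stayed within 2-fold in CPM. Tbx21 was at 463 and 432 CPM, Runx3 at 66.7 and 68.5 CPM, Stat4 at 190 and 186 CPM and Zfp683 at 36.2 and 33.8 CPM in untreated and treated cells, and Prdm1 was at 67.0 and 111 CPM. Id2 was at 3693 and 2836 CPM and Hopx at 32.4 and 42.3 CPM. Of 7 such factors with enough counts, none was 2-fold higher or lower in CPM. The shares of cells differed for Id2, at 93.4% (89.8 to 96.0) and 74.9% (69.1 to 80.1), with intervals apart. Runx3 was read in 10.3% and 4.38% of cells, and these intervals overlapped. Of the granzyme-inhibiting serpins other than Serpinb9, 8 had a row, Serpinb6a (54.1 and 47.7 CPM) and Serpinb6b (174 and 230 CPM) passed the filter, and neither reached 2-fold. Of 10 proliferation genes, 9 were higher, but just 9 treated cells held at least 3 of them. Of those 9 cells, 5 held Gzma (55.6%, 21.2 to 86.3) and 6 held Gzmb (66.7%, 29.9 to 92.5), and the shares in the other 242 treated cells, 38.8% and 49.2%, lay within these intervals.

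DNA methylation changed near 2 of the 9 members, which are neighbours. All DMRs within 50 kb of a member lay at the Gzma and Gzmk genes on chromosome 13 (GRCm38), and all 5 were hypo-methylated in treated mice, as were 69.0% of all 2873 DMRs. Gzma had 2 of them and Gzmk 3. Of 21911 protein-coding genes, 11.3% had a hypo-methylated DMR this near. The authors called these regions for a difference between the same groups. That sites within a region were lower in treated cells therefore follows largely from the call, and nothing is read from it. Methylation is given as the fraction methylated, the mean ± SD over CpG cytosines of both strands, where the SD describes how sites differ within a group, and the read depth is unknown. The DNA came from bulk cells, in which more cells of a hypo-methylated kind and less methylation per cell cannot be told apart.

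The region at the start of Gzmk (chr13:113180855-113181087) overlaps exons of Gzmk-201 and Gzmk-203 and holds the second part of the upstream sequence shown above. Its 16 cytosines were methylated at 0.747 ± 0.122 in untreated and 0.322 ± 0.114 in treated cells, and each was lower in treated cells. A longer region (chr13:113183072-113183924), centred 2.53 kb before this start in an intron of the long transcript Gzmk-202, fell from 0.923 ± 0.0531 to 0.485 ± 0.152 over 34 cytosines. The next (chr13:113168090-113168555) lay in no annotated transcript, 3053 bp past the 3′ end of Gzmk, and fell from 0.788 ± 0.132 to 0.323 ± 0.158 over 20 cytosines. In both of these regions each cytosine was lower in treated cells.

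The other 2 regions lay before Gzma, outside annotated transcripts. The one at 3812 bp from the gene (chr13:113104793-113104996), printed above, fell from 0.651 ± 0.0914 to 0.292 ± 0.106 over 17 cytosines, and no untreated site was below 0.460. The one at 19.3 kb from the start (chr13:113120055-113120521) had the lowest untreated level and the widest spread, 0.461 ± 0.243, and fell to 0.197 ± 0.244 over 18 cytosines. Each cytosine of both was lower in treated cells. The start of Gzma itself lay in no DMR.

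**Figure D4:**
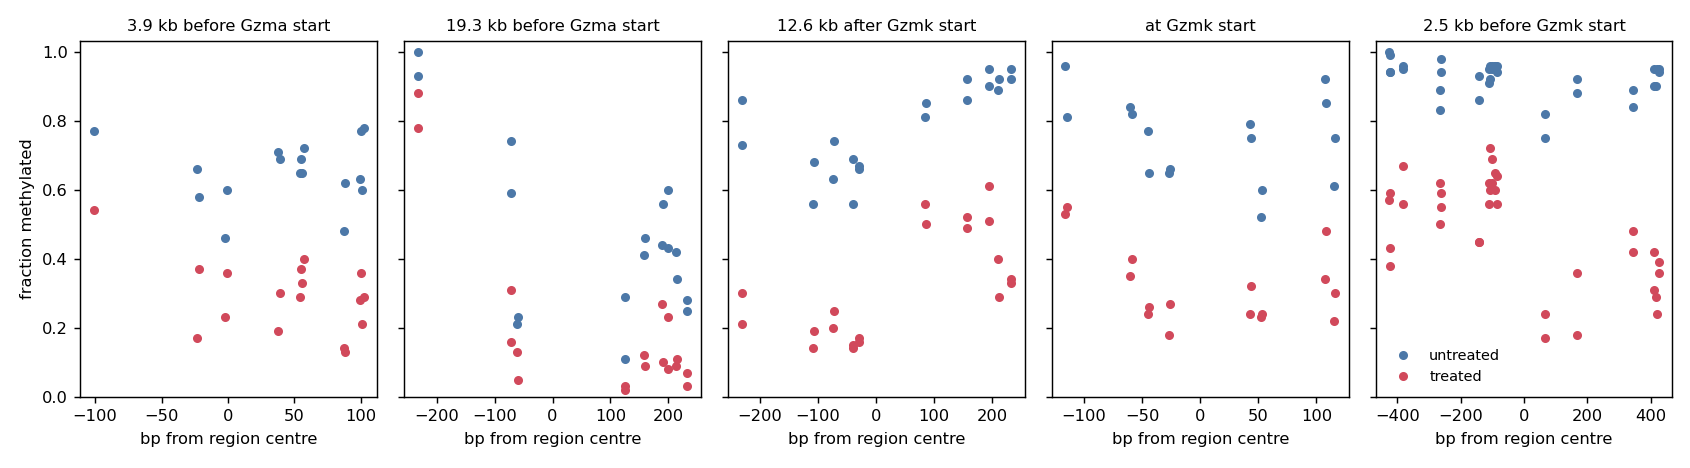
Fraction methylated of single CpG cytosines in the 5 DMRs near Gzma and Gzmk, by distance from the centre of each region in bp, in untreated (blue) and treated (red) cells; titles give the distance of the centre from the RefSeq start site. Each site is lower in treated cells, which follows largely from the call of the regions between these groups. The region 19.3 kb before Gzma has the widest spread between sites.

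The other members had no DMR within 50 kb. The nearest lay at 59.3 kb from Serpinb9, 86.8 kb from Fasl and 107 kb from Tnfsf10, and those of Nkg7 (231 kb), Gzmb (438 kb), Gzmm (734 kb) and Prf1 (996 kb) were farther. Gzmb, which was at 3344 CPM in treated cells, thus had no called region near it.

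The multiome fragments mark DNA that a transposase could cut, and each fragment carries the barcode of its nucleus with an ending of 1 or 2. The group behind each ending is not given in the sources used here, and the endings are therefore set side by side. With at least 1000 fragments, 8565 barcodes ended in 1 and 7237 in 2, with medians of 7104 and 8591 fragments; 100 of the 16-base barcodes occurred with both endings. Promoters were read as the 2 kb on either side of the RefSeq start site, in EPM (fragment ends scaled to a total of 1000000 for each barcode ending).

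The granzyme genes on chromosome 13 differed most between the endings. The Gzma promoter held 7.47 EPM (7.06 to 7.91) in ending 1 and 23.6 (22.8 to 24.4) in ending 2, a ratio of 3.16 (2.96 to 3.37). The Gzmk promoter held 1.52 (1.34 to 1.73) and 6.07 (5.68 to 6.48), a ratio of 3.99. In the profile of ends around the Gzma start, ending 2 was highest, at 2.82 EPM, in a bin of 100 bp about 1 kb before the start, and reached 2.54 in the 100 bp just before the start.

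The promoters of the other members were closer to each other between the endings. That of Gzmb held 33.8 (32.9 to 34.7) and 44.8 (43.8 to 45.9) EPM, a ratio of 1.33, and that of Gzmm 3.22 and 5.82, a ratio of 1.81. Ratios were 1.10 for Nkg7 (78.7 and 86.5 EPM), 1.08 for Prf1, 1.02 for Serpinb9, 1.00 for Fasl and 0.985 for Tnfsf10. Nkg7 had the most ends in both endings, Gzmk the fewest in ending 1 and Gzmm in ending 2.

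A ratio of at least 2 in favour of ending 2 was found for 2 of the 9 members (Gzma and Gzmk), as compared to 5.7% of the 12495 protein-coding genes with at least 100 promoter ends. None of the members had such a ratio in favour of ending 1, as compared to 0.784% of genes. The median ratio over these genes was 1.00. The Gzma promoter held fragments in 503 barcodes with ending 1 (5.87%, 5.38 to 6.39) and 1260 with ending 2 (17.4%, 16.5 to 18.3), and the Gzmb promoter in 1964 (22.9%) and 2202 (30.4%).

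The DMRs of the Gzma and Gzmk genes held more ends in ending 2 as well. The long region before Gzmk held 2.75 and 17.3 EPM (ratio of 6.31), and the one past the 3′ end 0.356 and 2.96 (ratio of 8.30). The ratio was 4.30 for the region at the Gzmk start, 3.15 for the one nearest to Gzma and 3.15 for the one at 19.3 kb. In each of the 5 regions the intervals of the endings were apart. Ends were not counted over the other DMRs, so that whether this is particular to these regions was not tested. Barcodes with fragments at both the Gzma and the Gzmb promoter were 2.70% of ending 1 (product of the shares, 1.35%) and 8.73% of ending 2 (5.30%), and barcodes with more fragments hold more of every promoter.

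**Figure D5:**
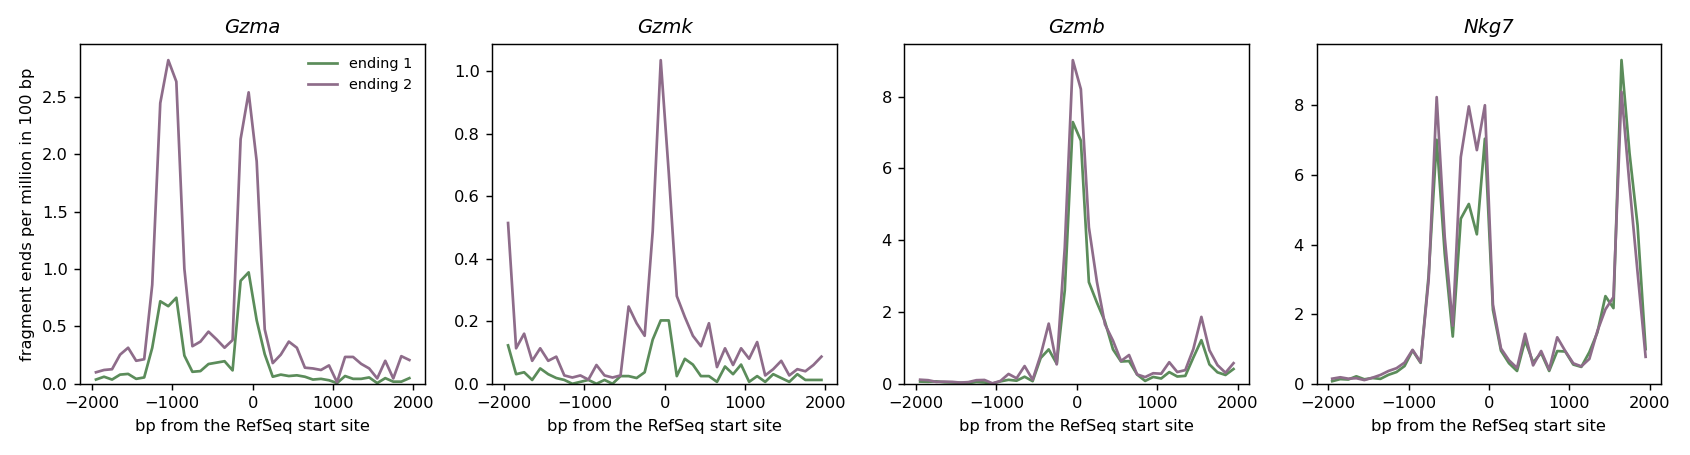
Fragment ends, in EPM, in 100 bp bins, by distance in bp from the RefSeq start site in the direction of transcription, for barcode endings 1 (green) and 2 (purple), at Gzma, Gzmk, Gzmb and Nkg7; the vertical scales differ. At Gzma and Gzmk ending 2 lies above ending 1 in most bins, and at Gzmb both are highest just before the start (7.29 and 9.02 EPM).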

How the data were processed

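The SmartSeq2 table deposited by the authors gives raw counts for each gene in each cell, made with STAR on GRCm38; how reads of several genes were counted is not given in the sources used here. For a set of cells, counts were added up and expressed as CPM, with log2 ratios taken with a prior of 1 CPM. Fraction values of methylation are those deposited by the authors (BSMAP, regions by metilene). That table also holds q-values and differences of the authors' comparison. These were not used here, but the regions listed are those the authors called from that comparison. The methods describe replicate bisulfite samples, and the table used here gives 1 value per group, without their spread. CpG context was read from GRCm38. Fragments are those deposited by the authors, 1 line each with its barcode (Cell Ranger ARC, BWA-MEM, duplicates removed), and each fragment gave 2 ends.

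Samples were grouped by their labels. There being 1 sample per group, no test was run; 95% intervals are exact Poisson (CPM) and exact binomial (Clopper-Pearson, shares). Where a value of 0 is said to allow a share, the limit is 3 counts or cells. That limit is lower than the upper end of the exact interval, which the figures draw. At least 1 read made a cell a holder. Of the 284 untreated and 282 treated cells deposited, the 11 and 31 without a sub-cluster in the study's list were left out. Barcodes needed at least 1000 fragments, and doublets were not looked for. Gene bodies follow GENCODE M21, and start sites and promoter sequences follow RefSeq (GRCm38.p6), where all 9 members matched. Named genes were the members, Il10, Il21, Lag3, fixed lists, and the 3 genes most correlated with Gzma, Gzmb and Gzmk in treated cells; members and lists were chosen with earlier results of these data known. Of the list genes, Serpina3g had no row. The B cell, CD8, endothelium and hepatocyte marker lists each summed to at most 82.3 CPM in either group. The 10X RNA, bulk ATAC-seq and histone data were not analysed here. Log2 ratios, binomial intervals and the counting of ends in windows were tested on simulated data. Python 3.11.15, scipy 1.17.1 and edgeR 4.0.16 (TMM factors alone, as an alternative scaling) were used.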

Additional observations from a re-analysis of the deposited data

How the results depend on the processing

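The number of members at least 2-fold higher in treated cells (5) was 4 with all deposited cells and in lane 2 and 3 in lane 1, and stayed at 5 with TMM or median-of-ratios scaling, the mean of single-cell CPM, a prior of 10 CPM and no filter. Each member passed the filter, so that leaving it out could not change this number. The TMM factors, 0.996 and 1.00, left little room for change. The share of all genes tested that were higher moved too. It was 20.1% in the main setting, 22.6% in lane 1 and 27% in lane 2. With a prior of 10 CPM it was 8.52%, and with no filter 5.45%. The number of members at least 2-fold lower (0) was 1 in lane 1 (Tnfsf10). The share of untreated cells with Gzmb (24.9%) was 31.5% in lane 2. The number of DMRs (5) was 8 within 100 kb and 2 with at least 20 CpG cytosines, counted on both strands. Of all 472 values recomputed, 446 stayed the same by the rule for their kind. Some could not move, such as the log2 ratios of the members with no filter. Shares and ratios of ends had to stay within their interval, and log2 ratios on the same side of the fold. Methylation values had to stay within the SD of the sites. Counts had to stay near the main count, so that 4 in place of 5 was held to be the same. None of the 5 members called higher changed direction. Thinning each cell to 200000 counts left out 6 untreated and 8 treated cells and gave 39.5% of treated cells with Gzma. Alternatives chosen after seeing the data were cells with a CD3 or TCR gene, cells without Lyz2, the GENCODE start sites, and lanes for overlaps in cells. The intervals of CPM are narrow because PCR copies are counted, and shares rest on 5 to 15 cells for Gzmk and 6 to 17 for Serpinb9. No paired analysis was possible because each kind of data used here gives 1 value or 1 sample per group, bisulfite replicates included. Leaving out a replicate was not run for the same reason.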

Other observations

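The 31 treated cells outside the study's list of cells with a sub-cluster held Gzma in 5 cells (16.1%), Gzmb in 11 (35.5%) and Nkg7 in 20 (64.5%), and Lag3 in 11 (35.5%) and Mki67 in 7 (22.6%). The 11 untreated cells outside the list held Gzma in 1 cell, Gzmb in 5 and Nkg7 in 10, and none held Il10, Il21 or Lag3.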
